A study of Homo sapiens with 12 samples.

Results

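The 34 genes described here encode the enzymes of glycolysis and the machinery and targets of the cellular response to low oxygen. They were taken by name: 15 glycolytic enzymes, 2 glucose transporters, 3 regulators of glycolytic flux, 2 alpha subunits of hypoxia-inducible factor (HIF), 2 HIF prolyl hydroxylases and 10 other HIF targets. The names were chosen with earlier results of these data known. Shares of members set beside those of all genes are therefore description and no test of the set. All 34 had a row among the 16101 genes of the PMA table, and 33 had a row among the 15991 genes of the ConA table, where adrenomedullin (ADM) was not listed. RNA was sequenced from wild-type HT1080 cells, a human fibrosarcoma line, in 12 libraries of 4 groups with 3 libraries each. In 1 experiment the agent was phorbol 12-myristate 13-acetate (PMA) at 40 nM, which activates protein kinase C in place of diacylglycerol, and the treated cells were compared with controls 1 to 3. In the other, cells received 40 µg/mL concanavalin A (ConA), a lectin that binds mannose and glucose residues of glycoproteins, and were compared with controls 4 to 6. All groups were plated in biotin-depleted medium and moved to low-serum biotin-depleted medium (1% fetal bovine serum) for the 24 h of treatment. The controls are labelled only as such, so whether they received a vehicle is not given in the sources used here. The labels mention no change of oxygen, and all cells are of 1 line. The labels do not say that replicates came from separate cultures, so p-values measure the spread between these libraries.

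Glycolysis splits glucose into pyruvate and yields ATP and NADH without oxygen, and lactate dehydrogenase returns the NADH to NAD. The alpha subunits of HIF are made continuously, but prolyl hydroxylases mark them for destruction while oxygen is present. When oxygen falls the subunits persist, pair with ARNT and bind DNA at hypoxia response elements, and most glycolytic enzymes are among the genes they induce. Tumour cells often run glycolysis at a high rate even with oxygen present.

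The values are normalized counts, which are estimated read counts per gene divided by 1 factor per library, without correction for gene length, and each table was normalized apart. Libraries held 33616852 to 45568279 estimated reads. Replicate libraries differed by more than sampling noise, with a ratio of observed to sampling variance of 3.52 to 16.3 where sampling alone would give 1, so errors below are those between libraries. All values are scaled by 1 factor per library, so fewer cells and less RNA per cell cannot be told apart. Markers of a mesenchymal cell line varied widely in level. In the PMA controls VIM averaged 195751 and FN1 167348 normalized counts. THY1 averaged 117 and S100A4 194 there, below the leukocyte marker CD8A at 388. Of the mesenchymal markers, 12 of 12 were listed for PMA and 11 of 12 for ConA. For PMA their summed level was 530163 to 536515 normalized counts in controls and 510812 to 529999 in treated libraries, a sum over markers of which 3 rose, with VIM at 0.49, and 7 fell, with SPARC at -1.53 and PDGFRB at -1.66 called lower (log2 fold changes). For ConA the sums were 634134 to 701737 and 474278 to 526518, and the lower sum with ConA was carried by VIM at -0.79 and FN1 at -0.68, while of the markers tested 5 fell and 4 rose, among the latter CDH2 at 0.47. Of 14 leukocyte markers, 10 were listed for PMA, among them PTPRC, CD3E and CD8A, with sums of 1081 to 1272 in the controls and 1409 to 2130 with PMA. For ConA, 4 were listed, without PTPRC, CD3E and CD8A, with sums of 136 to 162 in the controls and 162 to 235 with ConA. The part of any marker list in the results below was not tested. No erythroid marker was listed in either table, and the epithelial sums reached at most 331. Of 5 endothelial markers, 4 were listed in each table. Their sums were 165 to 209 in the PMA controls and 208 to 218 with PMA. For ConA they were 191 to 242 in the controls and 261 to 280 in treated libraries.

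Treated libraries were tested against the controls of the same table with limma, on log2(normalized count + 1), over 15153 genes for PMA and 15139 for ConA. A gene was called where its log2 fold change was at least 1 in size and its Benjamini-Hochberg adjusted p at most 0.0001, and a further count without a minimum fold used an adjusted p of at most 0.05. "Rose" and "fell" are used for genes past the latter. With PMA 0 of 34 members were called higher, where 4.03% of all genes were. Called lower were 3 (8.82%), ALDOC, EGLN3 and CA9, where 4.61% of all genes were. At an adjusted p of at most 0.05 and no minimum fold, 6 members rose (17.6%, beside 32.8% of all genes) and 19 fell (55.9%, beside 30.5%). With ConA 0 of 33 members were called higher (5.83% of all genes). Called lower were 4 (12.1%), ALDOC, PDK1, EGLN3 and NDRG1, where 2.88% of all genes were. Without a minimum fold, 0 of 33 rose with ConA (32.8% of all genes) and 28 fell (84.8%, beside 32.5%). With ConA 1 member, P4HA1, was higher at an unadjusted limma p under 0.05, and its adjusted p was 0.0654. The median log2 fold change of the members was -0.15 with PMA and -0.41 with ConA, while that of all tested genes was 0.003 and -0.002. Most members moved by less than a doubling in either direction, and those called, 3 with PMA and 4 with ConA, were all lower. Quantile normalization lowered the number that rose with PMA from 6 to 3 and raised the number that rose with ConA from 0 to 2. It also brought PFKP, GAPDH, PGK1, PGAM1 and ENO1 past the threshold as lower with PMA.

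**Figure D1:**
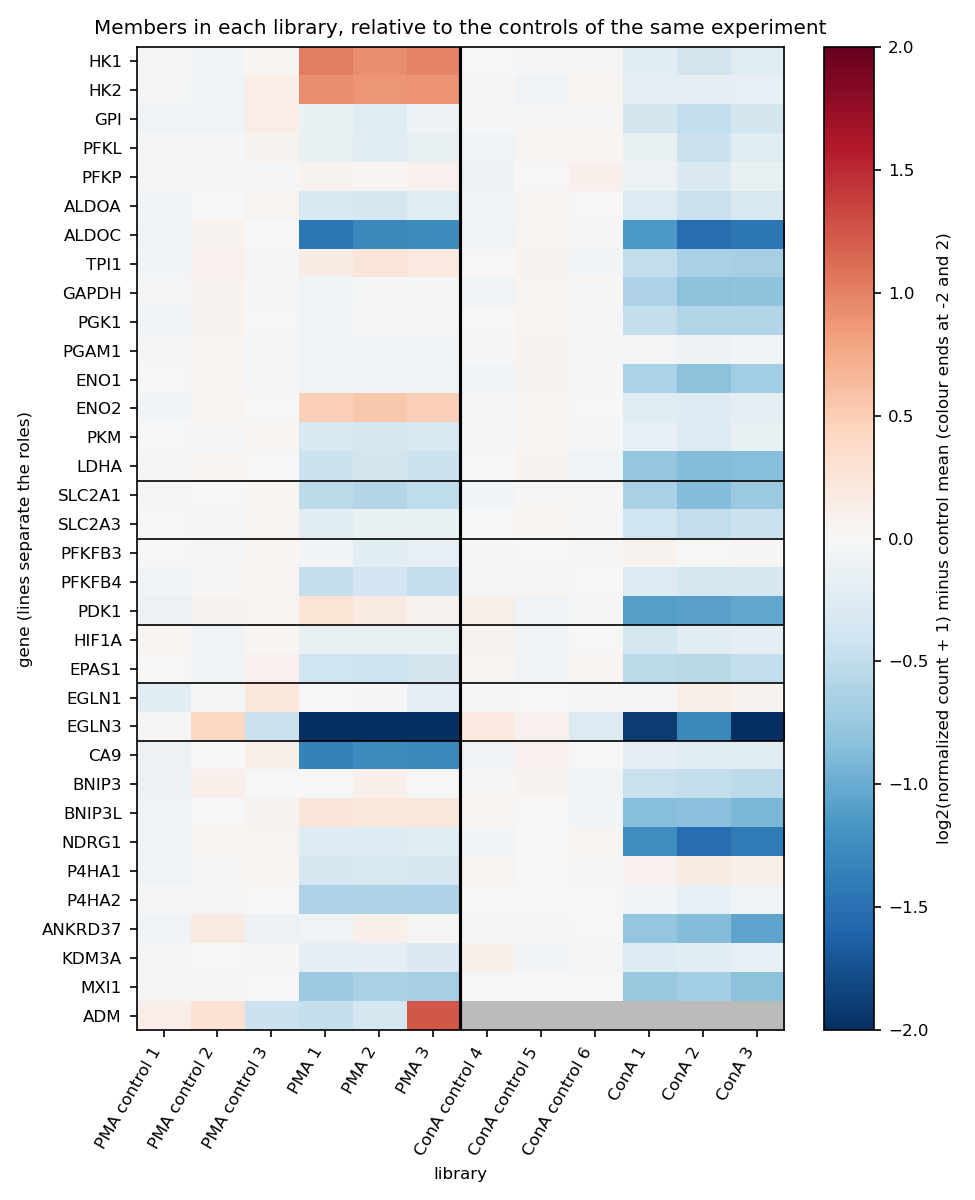
Each row is 1 of the 34 members and each column 1 of the 12 libraries. Colour gives log2(normalized count + 1) minus the mean of the controls of the same experiment, ending at -2 and 2, and grey marks ADM, which was not listed for ConA. HK1 and HK2 are red in all 3 PMA libraries, ALDOC and EGLN3 are blue in all 6 treated libraries, and the ConA columns are blue for most rows.

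Of the called members, ALDOC, EGLN3 and CA9 have a single listed start in the promoter table, and their promoters are printed because they carry the calls made with PMA and, for ALDOC and EGLN3, with ConA. The sequences are RefSeq's for GRCh38.p14, from 250 bases before to 50 after the start, with the core letters of the hypoxia response element, ACGTG on either strand (CACGT on the strand shown), in capitals. They were matched by symbol, which found 31 of 34 members, and no coordinates were converted. ALDOC lies on the minus strand at chr17:28576846-28577145, EGLN3 on the minus strand at chr14:33951025-33951324 and CA9 on the plus strand at chr9:35673678-35673977.
ALDOC: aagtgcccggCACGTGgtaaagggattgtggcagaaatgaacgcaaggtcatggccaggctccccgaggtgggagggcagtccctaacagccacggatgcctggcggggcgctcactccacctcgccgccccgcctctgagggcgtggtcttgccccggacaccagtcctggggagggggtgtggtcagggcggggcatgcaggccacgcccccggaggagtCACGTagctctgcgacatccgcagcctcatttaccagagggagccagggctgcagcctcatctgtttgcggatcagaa
EGLN3: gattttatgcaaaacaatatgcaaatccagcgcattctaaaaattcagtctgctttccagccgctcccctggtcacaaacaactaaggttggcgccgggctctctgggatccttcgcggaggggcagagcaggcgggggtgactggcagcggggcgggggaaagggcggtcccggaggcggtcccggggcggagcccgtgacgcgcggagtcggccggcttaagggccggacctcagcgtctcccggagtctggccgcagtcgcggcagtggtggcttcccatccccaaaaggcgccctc
CA9: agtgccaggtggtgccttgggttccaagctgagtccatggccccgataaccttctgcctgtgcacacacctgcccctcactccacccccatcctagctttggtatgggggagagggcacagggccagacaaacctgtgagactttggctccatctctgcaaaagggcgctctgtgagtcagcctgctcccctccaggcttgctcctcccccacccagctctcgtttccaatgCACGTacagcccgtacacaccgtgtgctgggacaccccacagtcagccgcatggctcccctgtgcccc
The ALDOC window held 3 matches, of which 2 overlap as the palindrome CACGTG at its far end and 1 lies 28 bases before the start. CA9 held 1 match, 18 bases before the start, and these letters were not in the EGLN3 window. Over the members, 21 of 51 promoters (41.2%) held the letters, beside 21.4% of all 35116 promoters in the table. They were in at least 1 promoter of 10 of 15 enzymes and of 5 of the 8 other HIF targets with a promoter, beside 24.9% of all 27305 genes in the table, where the number of promoters per gene varies. The related letters GCGTG were in 24 of 51 member promoters (47.1%), beside 36.5% of all promoters. A match describes the sequence only.

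Among the enzymes, PMA raised the hexokinases, which phosphorylate glucose on entry, while aldolase C fell. HK1 measured 10070, 9587 and 10186 normalized counts in controls 1 to 3 and 20107, 18979 and 19735 in the PMA libraries. HK2 measured 6120.4, 5974 and 6888 in the controls and 12068, 11589 and 11792 with PMA. For both genes every PMA library lay far above every control. The log2 fold changes were 0.98 (SE 0.04, adjusted p = 2.44e-09) for HK1 and 0.90 (SE 0.05, adjusted p = 4.33e-08) for HK2, in limma over all genes. Neither reached the log2 fold of 1 that a call required, and HK1 was past it in the fit without PMA replicate 2, at 1.00. ENO2, the neuronal enolase, rose by 0.50 (SE 0.04, adjusted p = 1.12e-06), and TPI1, which interconverts the triose phosphates, rose by 0.20 (SE 0.05, adjusted p = 0.00311). Under quantile normalization TPI1 was at 0.07, with an adjusted p of 0.169. ALDOC, the brain-type aldolase, measured 5214, 5757 and 5504 in the controls and 2015, 2249.96 and 2302 with PMA. The groups were well apart, with a log2 fold change of -1.33 (SE 0.06, adjusted p = 3.41e-09), and the call held in all 15 alternatives. LDHA, which makes lactate from pyruvate, fell by 0.41 on the log2 scale, PKM, the pyruvate kinase, by 0.33, ALDOA, the major aldolase, by 0.30, PFKL, a phosphofructokinase, by 0.17 and GPI, which isomerizes glucose phosphate, by 0.16. GPI had an adjusted p of 0.0372, and it was 0.0788, 0.0632 and 0.157 in the fits without PMA control replicate 3, PMA replicate 1 and PMA replicate 2. The remaining 5 did not pass: PFKP at 0.07, GAPDH at -0.05, PGK1 at -0.03, PGAM1 at -0.07 and ENO1 at -0.07. Under quantile normalization all of these passed as lower. PFKP turned to -0.15 (adjusted p = 0.00311), and GAPDH, PGK1, PGAM1 and ENO1 were at -0.23, -0.13, -0.26 and -0.24.

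**Figure D2:**
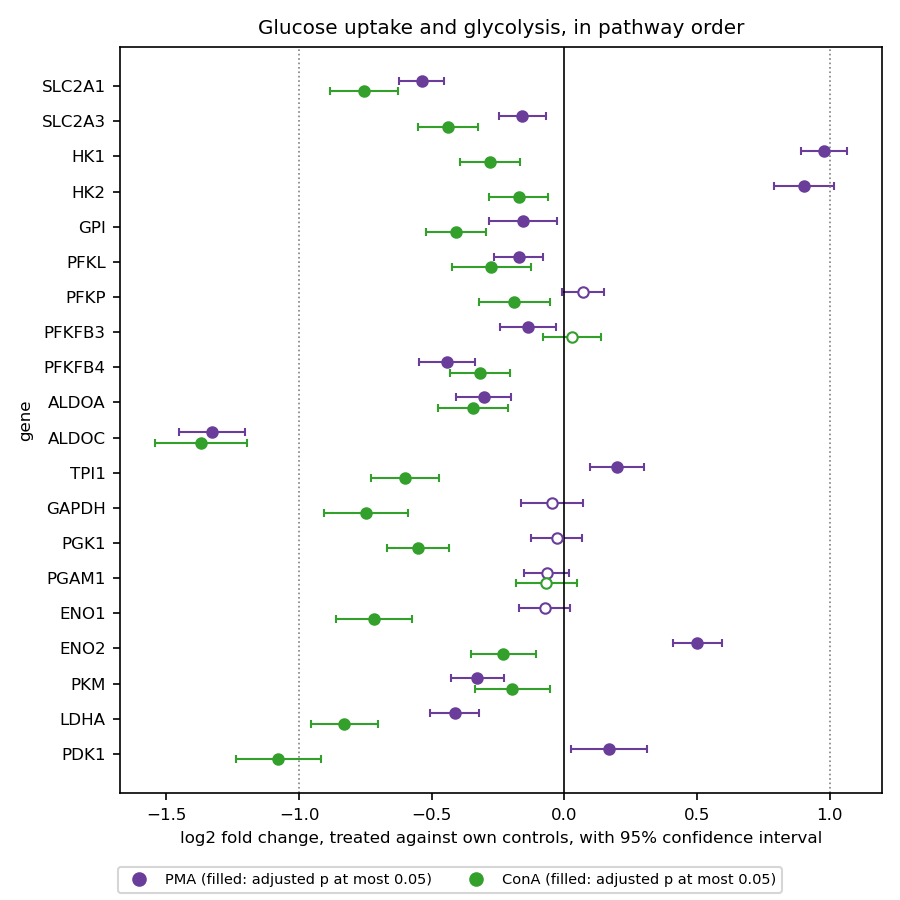
Points give the log2 fold change of the glucose transporters, enzymes and flux regulators, in pathway order from top to bottom, with PMA (purple) and ConA (green) against the controls of each experiment. Bars are 95% confidence intervals from limma with 3 libraries per group, filled points have an adjusted p of at most 0.05, and dotted lines mark -1 and 1. With PMA, HK1 at 0.98 and HK2 at 0.90 lie to the right and ALDOC at -1.33 to the left, whereas with ConA all 15 enzymes lie left of 0.

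With ConA the enzymes fell nearly throughout, and 14 of 15 passed (93.3%, beside 32.5% of all genes). ALDOC measured 4451, 4855 and 4764 in controls 4 to 6 and 2109.8, 1638 and 1723 with ConA. All ConA libraries lay below all controls, with a log2 fold change of -1.37 (SE 0.08, adjusted p = 3.58e-09), and the adjusted p was 0.000165 in the fit without a variance trend, which ends the call. LDHA fell by 0.83 on the log2 scale (adjusted p = 2.48e-08), GAPDH, the enzyme that forms NADH, by 0.75, ENO1, the main enolase, by 0.72, TPI1 by 0.60 and PGK1, which makes ATP from bisphosphoglycerate, by 0.55. These 5 include most steps of the pathway after the aldolase, but PGAM1, the mutase between PGK1 and ENO1, measured -0.07 (95% confidence interval -0.18 to 0.05, adjusted p = 0.28). GPI fell by 0.41, ALDOA by 0.34, HK1 by 0.28, PFKL by 0.28, ENO2 by 0.23, PKM by 0.20, PFKP by 0.19 and HK2 by 0.17. Under quantile normalization PKM turned to 0.35 and PGAM1 to 0.13, both past the threshold as higher (adjusted p = 2.21e-05 and 0.0247). Single libraries decided 3 of the smaller changes: the adjusted p was 0.051 for HK2 without ConA control replicate 6, 0.0956 and 0.0966 for PFKP without ConA replicate 2 and ConA control replicate 6, and 0.1 for PKM without ConA replicate 2. HK1 measured 10060, 9998 and 10303 in the controls and 8609.8, 7869.8 and 8536 with ConA, so the gene that rose most with PMA was lower in each ConA library than in each of its controls. HK2 measured 4382, 4102 and 4463 in the controls and 3814, 3807 and 3859.7 with ConA.

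The 15 enzymes together took 2.34% ± 0.054 (SD, n = 3) of all normalized counts in the PMA controls and 1.98% ± 0.011 with PMA. In the ConA experiment their share was 2.04% ± 0.056 in the controls and 1.51% ± 0.064 with ConA. Treated and control libraries did not overlap in either experiment. The total that a share is taken of also changed. It was 36791432 to 37139546 normalized counts in the PMA controls and 40081123 to 40289797 with PMA. For ConA it was 42480641 to 43210305 in the controls and 40609399 to 41323373 in treated libraries. The shares of the other HIF targets below rest on the same totals. These sums are not divided by gene length, and ALDOC, HK1 and HK2 add little to them, since GAPDH alone measured 256566 ± 10180 normalized counts in the PMA controls and 150962 ± 11864 with ConA.

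The glucose transporters fell with both agents. SLC2A1 (GLUT1), the widespread basal transporter, changed by -0.54 (SE 0.04, adjusted p = 3.04e-07) with PMA and -0.76 (SE 0.06, adjusted p = 7.47e-08) with ConA on the log2 scale. SLC2A3 (GLUT3), a transporter of high affinity, changed by -0.16 and -0.44. Among the flux regulators, PFKFB3 and PFKFB4 make and remove the allosteric activator of phosphofructokinase, and PDK1 is a kinase that inactivates pyruvate dehydrogenase and so keeps pyruvate out of the mitochondrial cycle. PFKFB4 fell by 0.44 with PMA and by 0.32 with ConA. PFKFB3 fell by 0.14 with PMA (adjusted p = 0.0257), with an adjusted p of 0.0668, 0.115 and 0.0766 in the fits without PMA control replicate 1, PMA replicate 2 and PMA replicate 3, and measured 0.03 with ConA (95% confidence interval -0.08 to 0.14), or -0.03 with median centring. PDK1 measured 1093, 950 and 981 in the ConA controls and 469, 472 and 488 with ConA. Its level in each ConA library was about the same and below every control, with a log2 fold change of -1.08 (SE 0.07, adjusted p = 1.87e-08), called in all 14 alternatives. In the PMA experiment PDK1 measured 1202, 1364 and 1353 in the controls and 1571, 1466 and 1369.8 with PMA, so that the lowest PMA library barely exceeded the highest control. The log2 fold change was 0.17 (SE 0.07, adjusted p = 0.0405), and the adjusted p was 0.177, 0.165 and 0.0912 without PMA control replicate 1, PMA replicate 1 and PMA replicate 2.

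The HIF alpha subunits fell modestly with both agents. HIF1A measured 22756, 21251 and 22791 normalized counts in the PMA controls and 20101, 20088 and 20021 in the PMA libraries. For ConA it measured 24516, 22366 and 23273 in controls and 18320, 20246 and 20640.2 in treated libraries. Treated libraries lay below controls in both, and the log2 fold changes were -0.15 (SE 0.04, adjusted p = 0.00632) with PMA and -0.25 (SE 0.06, adjusted p = 0.00231) with ConA. EPAS1, the alpha subunit of HIF-2, measured 6645, 6293 and 7118 in the PMA controls and 5077, 4996 and 5190.5 with PMA. It measured 4526, 4086 and 4479.8 in the ConA controls and 3004, 2979 and 3084 with ConA. The groups were separate in each experiment, with log2 fold changes of -0.39 (SE 0.05, adjusted p = 2.22e-05) and -0.53 (SE 0.06, adjusted p = 1.35e-06). HIF is regulated mainly through the stability of its alpha subunits, which these data do not measure.

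Of the prolyl hydroxylases, EGLN3, itself a HIF target, had the largest fall of all members with either agent, at a low level. It measured 68.2, 90.3 and 49.6 in the PMA controls and 12.8, 7.6 and 13.2 in the PMA libraries. For ConA it measured 54.2, 50.03 and 39.1 in controls and 12.02, 18.8 and 10.8 in treated libraries. No treated library reached any control, and the lowest PMA library held 8 estimated reads of this gene. The log2 fold changes were -2.53 (SE 0.29, adjusted p = 1.8e-05) with PMA and -1.74 (SE 0.28, adjusted p = 7.26e-05) with ConA. Without a variance trend the adjusted p was 0.000838 and 0.00104, which ends both calls. The call with PMA was also lost without PMA control replicate 1 (0.00027) and PMA control replicate 2 (0.000186). That with ConA was also lost without ConA replicate 1 (0.000122), ConA replicate 3 (0.000418) and each of ConA control replicates 4, 5 and 6 (0.000487, 0.000573 and 0.000303), although the log2 fold change stayed between -1.96 and -1.59 with any library left out. EGLN1, the main oxygen sensor, measured -0.06 with PMA (95% confidence interval -0.27 to 0.15) and 0.05 with ConA (-0.07 to 0.17), or -0.01 with median centring.

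Several of the other HIF targets responded by different amounts to the agents, with the tests of the difference given further on. CA9, a carbonic anhydrase of the cell surface that regulates pH, measured 1529, 1677 and 1802 in the PMA controls and 649, 696 and 680.1 with PMA. The groups were far apart, with a log2 fold change of -1.30 (SE 0.06, adjusted p = 1.16e-08), called in all 15 alternatives. With ConA it measured 724, 804 and 754 in the controls and 662, 642 and 656 in treated libraries, a log2 fold change of -0.22 (SE 0.07, adjusted p = 0.0135, or 0.0575 without ConA control replicate 5). NDRG1, a stress-responsive gene of growth arrest and differentiation, measured 15442, 16232 and 16685 in the ConA controls and 6810.4, 5613 and 6063 with ConA. It was below all controls in each ConA library, with a log2 fold change of -1.39 (SE 0.07, adjusted p = 3.54e-10), called in all 14 alternatives. In the PMA experiment NDRG1 measured 34818, 37609 and 38050 in the controls and 30837, 30526 and 31525 with PMA, a log2 fold change of -0.25 (SE 0.04, adjusted p = 0.000417). BNIP3L, a receptor for the removal of mitochondria, measured 7456, 7805 and 8141 in the PMA controls and 9212, 9159.7 and 9096 with PMA. It measured 5624, 5521 and 5255 in the ConA controls and 3030.1, 3069 and 2886 with ConA. BNIP3L was thus the only one of these 10 members to rise with PMA, by 0.23 (SE 0.04, adjusted p = 0.000378; 0.08 with an adjusted p of 0.0898 under quantile normalization), and it fell by 0.87 with ConA (SE 0.05, adjusted p = 5.02e-09).

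The related BNIP3 measured 0.03 with PMA (95% confidence interval -0.09 to 0.15; -0.12 under quantile normalization) and fell by 0.48 with ConA. ANKRD37, an ankyrin repeat protein, measured 0.01 with PMA (95% confidence interval -0.18 to 0.21) and fell by 0.90 with ConA. MXI1, a repressor that opposes MYC, fell by 0.68 with PMA and 0.75 with ConA, and KDM3A, a histone demethylase, fell by 0.22 and 0.21. P4HA1 and P4HA2, subunits of the prolyl hydroxylase that matures collagen, fell by 0.33 and 0.61 with PMA and measured 0.11 (95% confidence interval 0.003 to 0.22, adjusted p = 0.0654) and -0.10 (-0.21 to 0.01, adjusted p = 0.0926) with ConA. P4HA1 passed in the fit without ConA control replicate 4, at 0.14 with an adjusted p of 0.0485, and in 1 fit of all 12 libraries (0.0345). P4HA2 passed, as lower with ConA, under quantile normalization (-0.12, adjusted p = 0.0387), with median centring (-0.16, adjusted p = 0.0122) and in 1 fit of all 12 libraries (adjusted p = 0.0386). ADM, a vasodilator peptide, was near the listing limit at 11.1, 12.5 and 7.22 in the PMA controls and 6.97, 7.6 and 25.1 with PMA. Its groups overlapped and its log2 fold change of 0.14 (95% confidence interval -0.94 to 1.22) leaves either direction possible at this depth.

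**Figure D3:**
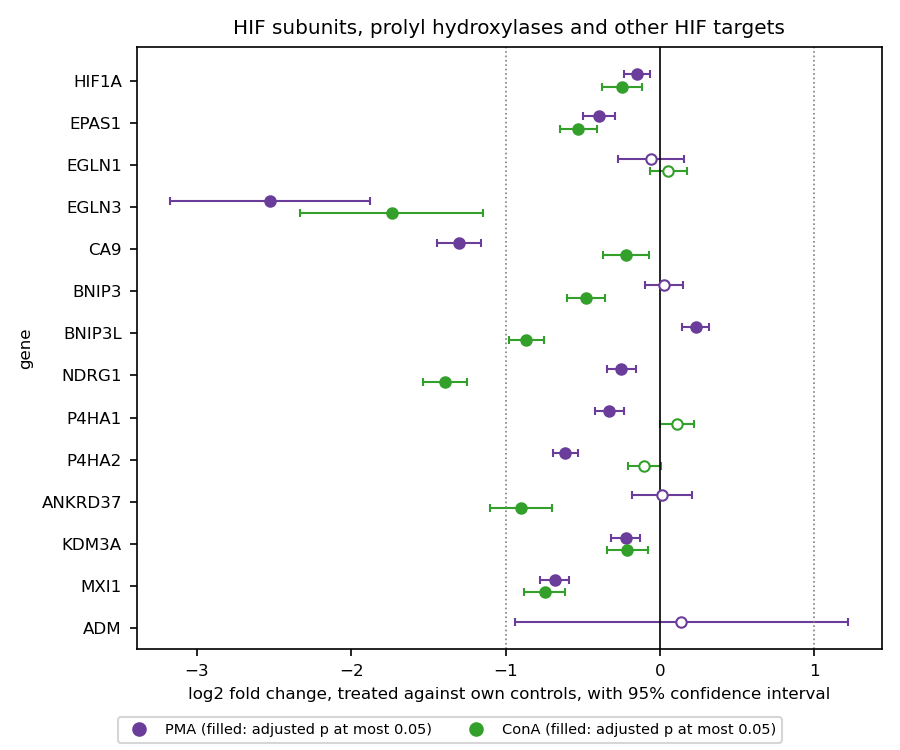
Points give the log2 fold change of the HIF alpha subunits, prolyl hydroxylases and other HIF targets with PMA (purple) and ConA (green) against the controls of each experiment, with 95% confidence intervals from limma, 3 libraries per group. Filled points have an adjusted p of at most 0.05. EGLN3 lies furthest left for both agents, at -2.53 and -1.74, and CA9, BNIP3L, NDRG1 and ANKRD37 show the agents far apart.

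The values of the enzymes and of the other HIF targets are set side by side here. With PMA 4 of 15 enzymes rose (26.7%, beside 32.8% of all genes) and 6 fell (40%, beside 30.5%), with a median log2 fold change of -0.07 and a range of -1.33 to 0.98, and 1 of 10 other HIF targets rose (10%) and 6 fell (60%), with a median of -0.24 and a range of -1.30 to 0.23. With ConA 14 of 15 enzymes (93.3%) and 7 of 9 other HIF targets (77.8%) fell, beside 32.5% of all genes, and 0 of either rose, beside 32.8%, with medians of -0.34 and -0.48. For PMA the other HIF targets took 0.186% ± 0.0092 of all normalized counts in controls and 0.149% ± 0.00062 in treated libraries (SD, n = 3). For ConA their share was 0.0924% ± 0.00045 and 0.0611% ± 0.0012, and the groups did not overlap in either experiment. The difference between the 2 sets was not tested. The counts with PMA also depend on the scaling. Under quantile normalization PFKP, GAPDH, PGK1, PGAM1 and ENO1 passed as lower too, and TPI1 and BNIP3L no longer passed as higher. Each set held 1 called member per agent, in both cases lower: ALDOC among the enzymes with both agents, CA9 with PMA and NDRG1 with ConA. With 1 member each, these are too few to read against the 4.61% and 2.88% of all genes called lower.

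The log2 fold change with ConA was subtracted from that with PMA and the difference tested in limma over the 12 libraries, for 15030 genes. Because each agent was given in an experiment of its own, agent and experiment cannot be told apart. The controls also differed in level, in values normalized apart. CA9 averaged 1669 normalized counts in the PMA controls and 761 in the ConA controls, but 675 with PMA and 653 with ConA. On the log2 scale the PMA controls minus the ConA controls were at -0.02 for HK1, 0.55 for HK2 and 0.37 for PDK1. For BNIP3L and NDRG1 they were at 0.51 and 1.19. By the call rule 5 of 33 members were more positive with PMA (HK1, HK2, PDK1, BNIP3L and NDRG1), where 3.67% of all genes were, and 1 was more negative (CA9), where 6.89% were. At an adjusted p of at most 0.05 without a minimum, 17 were more positive (51.5%, beside 30.4% of all genes) and 4 more negative (12.1%, beside 30.7%). Of the 17, several did not pass under quantile normalization. These were GAPDH at 0.15 (adjusted p = 0.22), GPI at 0.08 (0.423), PFKP at 0.0007 (0.994), SLC2A3 at 0.14 (0.0568) and SLC2A1 at -0.0075 (0.93). HK1 had the largest difference, at 1.26 on the log2 scale (SE 0.06, adjusted p = 2.16e-11). Among the enzymes HK2 followed at 1.08, TPI1 at 0.80, ENO2 at 0.73, GAPDH at 0.70, ENO1 at 0.64 and PGK1 at 0.52. ALDOC, with the lowest log2 fold change of the enzymes in both experiments, differed by 0.04 (95% confidence interval -0.19 to 0.27), and MXI1 by 0.07 (-0.08 to 0.22) and KDM3A by -0.01 (-0.17 to 0.15). For HIF1A the interval of the difference was -0.06 to 0.25, and for EPAS1 -0.02 to 0.29. EGLN3 differed by -0.79, with an interval of -1.66 to 0.08 (adjusted p = 0.108). More negative with PMA were CA9, P4HA2 at -0.51, P4HA1 at -0.44 and PFKFB3 at -0.17, the last with an adjusted p of 0.0416 that rose to between 0.0611 and 0.121 in 8 of the 12 fits with 1 library left out.

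**Figure D4:**
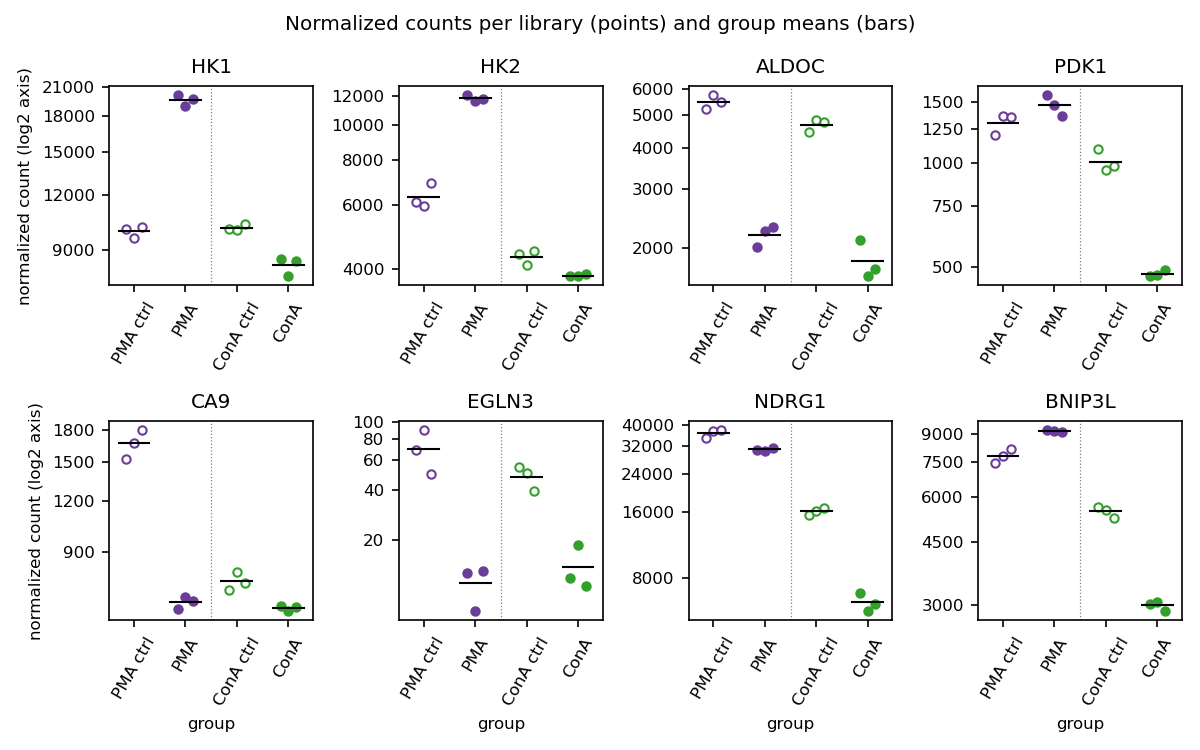
Each panel shows 1 gene, with normalized counts on a log2 axis that differs between panels. Open points are control libraries and filled points treated ones, 3 per group, bars are group means, and the dotted line separates the experiments, which were normalized apart. HK1 and HK2 are high with PMA, PDK1, NDRG1 and BNIP3L are low with ConA, CA9 is low with PMA, and ALDOC and EGLN3 are low with both.

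Several members are alternative forms of the same step, and the log2 ratio of such a pair within a library does not depend on the scaling of the library. Over 10 pairs and both agents 20 ratios were compared by a two-sided exact permutation test, which with 3 against 3 cannot go below 0.1 (0.111 after Benjamini-Hochberg adjustment over the 20). No ratio could therefore pass 0.05. The ratio of ALDOC to ALDOA moved from -3.93 ± 0.065 to -4.95 ± 0.1 with PMA and from -3.93 ± 0.026 to -4.95 ± 0.14 with ConA (SD, n = 3). That of ENO2 to ENO1 moved by 0.58 and 0.49, and that of SLC2A3 to SLC2A1 by 0.38 and 0.32. In contrast, the ratio of EPAS1 to HIF1A moved by -0.24 and -0.28, of PFKFB4 to PFKFB3 by -0.30 and -0.35, of P4HA2 to P4HA1 by -0.29 and -0.21, and of EGLN3 to EGLN1 by -2.58 and -1.87. In all of these the treated and control libraries did not overlap (exact p = 0.1 each). How often the ratios of other gene pairs separate was not measured. Of all genes, 32.8% rose and 30.5% fell with PMA, and 32.8% and 32.5% with ConA. Separation is therefore given as description and not as a trait of these pairs. The ratio of BNIP3 to BNIP3L moved by -0.20 with PMA and by 0.39 with ConA, also without overlap. The hexokinases kept closest together with PMA, with a ratio of HK2 to HK1 of -0.66 ± 0.081 in the controls and -0.73 ± 0.016 with PMA, which overlapped (exact p = 0.2), and of -1.23 ± 0.048 and -1.12 ± 0.066 with ConA. PFKP to PFKL moved by 0.24 with PMA and by 0.09, with overlap, with ConA.

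**Figure D5:**
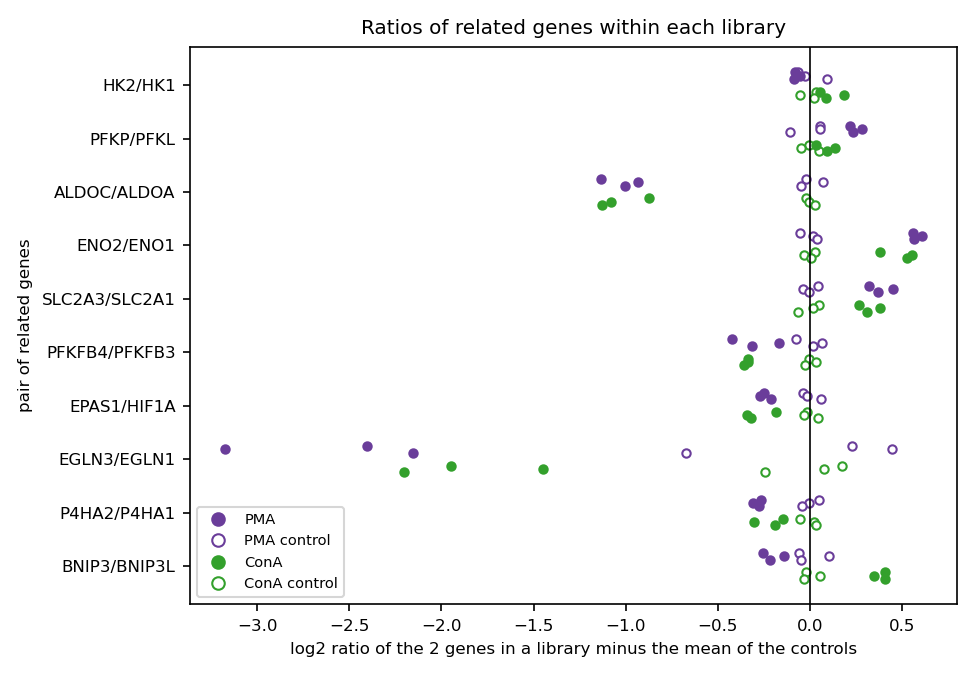
Each row is a pair of related genes, and each point the log2 ratio of the pair in 1 library minus the mean of the controls of the same experiment. Open points are controls and filled points treated libraries, 3 per group. ALDOC/ALDOA lies near -1 with both agents, ENO2/ENO1 near 0.5, and BNIP3/BNIP3L to the left with PMA and to the right with ConA.

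A wider list of 87 genes of glycolysis, HIF machinery and HIF targets held 75 tested genes for PMA and 74 for ConA. With PMA 3 were called higher (4%) and 1 lower (1.33%), beside 4.03% and 4.61% of all genes. Without a minimum fold 19 rose (25.3%) and 34 fell (45.3%), beside 32.8% and 30.5% of all genes. With ConA 0 were called higher, beside 5.83% of all genes, and 7 lower (9.46%), beside 2.88%. Without a minimum fold 18 rose with ConA (24.3%) and 38 fell (51.4%), beside 32.8% and 32.5% of all genes. The genes called higher with PMA were STC1, a secreted glycoprotein of calcium and phosphate balance, at 2.50 (39962 ± 847 to 226395 ± 3717 normalized counts), CITED2, which competes with HIF for its coactivators, at 1.13, and BPGM, which diverts bisphosphoglycerate, at 1.06. SLC2A12, a further glucose transporter, was called lower at -3.62 (472 ± 22.4 to 37.7 ± 6.25). With ConA, STC1 fell by 0.37, CITED2 rose by 0.45, BPGM rose by 0.61 and SLC2A12 measured -0.08. Of the genes called lower with ConA, the muscle mutase PGAM2 held 17.3 to 24.9 normalized counts in the controls and at most 1.26 with ConA. PGAM2 passed the filter of a mean of at least 10 only through its controls, so its call could only be a fall. In the PMA experiment it had a control mean of 6.26 and was not tested. The others called lower with ConA were 6 HIF targets. These were DDIT4, an inhibitor of mTOR signalling, at -1.62, the repressor BHLHE41 at -1.43, the mitochondrial protein FAM162A at -1.27, the angiogenic factor VEGFA at -1.22, the lipoprotein receptor VLDLR at -1.15 and the glycogen branching enzyme GBE1 at -1.09. With PMA, VEGFA was at -0.87, FAM162A at -0.75, BHLHE41 at -0.53, GBE1 at -0.53 and DDIT4 at -0.41, all past an adjusted p of 0.05, and VLDLR at 0.13 was not (adjusted p = 0.0546). Of the 12 tested genes of the HIF machinery, 8 rose (66.7%) and 0 fell with PMA, beside 32.8% and 30.5% of all genes. With ConA 5 of them rose (41.7%) and 3 fell (25%), beside 32.8% and 32.5%. As examples chosen after their values were seen, CUL2, the scaffold of the VHL ubiquitin ligase, was at 0.51 and ARNT, the partner of the alpha subunits, at 0.33 with PMA, and ELOB, a further subunit of that ligase, was at -0.86 with ConA.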

How the data were processed

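The signal values deposited by the authors are normalized counts, 1 table for each experiment, in which estimated reads were divided by 1 factor per library. The submitters' processing notes name Partek, Bowtie2, STAR and DESeq2, and the builds hg19 and mm10, without versions or roles. The annotation and the strand of counting are not given in the sources used here. In each table every gene reaches 10 estimated reads in some library. Between 81.7% and 84.2% of values from 5 to 60 came within 0.05 of a whole read under the best factor, so count models were not used, and limma replaced them. Genes with a mean of at least 10 were tested with limma 3.58.1 in R 4.3.3 on log2(value + 1), a pseudocount that understates changes of low genes, with a variance trend and Benjamini-Hochberg adjustment over all genes. All 34 members are named, with values per library for those called in either table or in the difference, HIF1A, EPAS1 and the enzymes with the largest rise and fall. Genes of the wider list are named where called, except 3 examples of the HIF machinery chosen after their values were seen. The members and lists were chosen with earlier results of these data known. Antisense and pseudogene rows recognized by the ending of a member's symbol held at most 0.357% of the member's level. That search leaves out PGAM4, a gene related to PGAM1. PGAM4 averaged 591 normalized counts beside 23533 for PGAM1 in the PMA controls, and 1014 beside 28343 in the ConA controls. The test was also run on simulated counts with the same spread setting for every gene and few changed genes. That setting differs from these data, so the run does not show how the test performs on them. Further steps used Python 3.11.15 with pandas 2.3.3 and matplotlib 3.10.9.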

Additional observations from a re-analysis of the deposited data

Results flagged for a closer look

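For 6 members the change with PMA and the change with ConA differed past the call threshold in a test of the difference itself (limma over 12 libraries, 4 group means). On the log2 scale the value for PMA minus that for ConA was 1.26 for HK1, 1.08 for HK2, 1.25 for PDK1, 1.10 for BNIP3L and 1.14 for NDRG1, and -1.08 for CA9. HK1 and HK2 rose in the PMA experiment and fell in the ConA experiment, as did PDK1 and BNIP3L, while NDRG1 and CA9 fell in both by different amounts. Agent and experiment cannot be told apart. The controls of CA9 and NDRG1 were themselves apart, by 1.13 and 1.19 on the log2 scale, higher in the PMA experiment. Under quantile normalization HK2 at 0.91 and BNIP3L at 0.98 were no longer called. PDK1 rose with PMA by 0.17, with an adjusted p of 0.0405 that was 0.177 without PMA control replicate 1, 0.165 without PMA replicate 1 and 0.0912 without PMA replicate 2.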

How the results depend on the processing

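Alternatives changed the pseudocount (0.1 and 10), the filter (none, or a mean of at least 50), the scaling, the variance trend and the libraries. Of 1568 values under alternatives, 1494 kept their direction and side of the threshold or moved little. Quantile normalization lowered the members that rose with PMA to 3, raised those that rose with ConA to 2, and moved the median log2 fold change with PMA to -0.24 for the enzymes and -0.36 for the other HIF targets, and with ConA to -0.28 for the enzymes. It also turned PFKP (-0.15) and BNIP3 (-0.12) with PMA, PGAM1 (0.13) and PKM (0.35) with ConA, and the difference for SLC2A1 (-0.0075). With PMA it brought PFKP, GAPDH, PGK1, PGAM1 and ENO1 past the threshold as lower. The shift of the median of all genes was under 0.1 in each scaling. Median centring moved the median of the other HIF targets with ConA to -0.54 and turned PFKFB3 (-0.035) and EGLN1 (-0.0092) with ConA. A fit of all 12 libraries gave 1 member that rose with ConA, and without a variance trend 2 were called lower with ConA. With single libraries left out, the members called higher with PMA were 0 to 1, those that rose with ConA 0 to 1, the median of the enzymes with PMA -0.080 to -0.038 and that of the other HIF targets with ConA -0.53 to -0.45. With PMA these fits also turned the sign of PGK1 (-0.059 to 0.0023), EGLN1 (-0.16 to 0.058), BNIP3 (-0.032 to 0.083), ANKRD37 (-0.046 to 0.10) and ADM (-0.072 to 0.44), none past the threshold. The difference for ANKRD37 became a call under quantile normalization (1.03) and without PMA control replicate 2 (1.00). Causes were not tested. Same-numbered PMA and control libraries correlated at -0.06, 0.10 and 0.10 in their deviations, and differently numbered ones at -0.18 to 0.11. With 3 libraries per group these values cannot settle whether the numbers pair them. With the replicate block, members called lower with PMA stayed at 3 and those that rose were 5, since PDK1 had an adjusted p of 0.0533, and calls over all genes went from 1310 to 1264. The ConA groups share no replicate number. With 3 libraries per group and low counts, changes of EGLN3 and ADM are the least precise.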

Other observations

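The labels give both sets of control libraries the same culture protocol. Their tables were normalized apart, so no test was made, and the values are given against the spread of all genes. The log2 level in the PMA controls minus that in the ConA controls had a median of -0.18 over 14675 genes, with a 5th to 95th percentile range of -0.77 to 0.53. Its median was 0.02 over the 15 enzymes and 0.51 over 9 other HIF targets. BNIP3 was at 1.21 (7822 ± 622 against 3388 ± 192 normalized counts), NDRG1 at 1.19 (36825 ± 1753 against 16120 ± 629) and CA9 at 1.13 (1669 ± 137 against 761 ± 40.5) (SD, n = 3), all outside that range, as were ENO2 at 0.81, EPAS1 at 0.62, HK2 at 0.55 and MXI1 at 0.54.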
